A study of Mus musculus with 12 samples.

Results

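Metalloproteinases and their inhibitors were taken as the genes whose symbols name a matrix metalloproteinase (Mmp), an ADAM, an ADAMTS, an ADAMTS-like protein (Adamtsl) or a tissue inhibitor of metalloproteinases (Timp1 to Timp4). The table of 57073 gene models held 85 of them, namely 23 Mmp, 34 Adam, 19 Adamts, 5 Adamtsl and 4 Timp genes. They were measured in retinas of C57BL/6 mice at postnatal day 17, by RNA sequencing of poly-A transcripts in 12 libraries. There were 6 libraries of oxygen-induced retinopathy (OIR), labelled with 75% oxygen, and 6 of retinas labelled normoxic, kept in air. No genotype or further agent is given for either group, nor the ages at which the oxygen was given. In this model, high oxygen prunes the retinal capillaries of pups, and the poorly perfused retina later becomes hypoxic and grows abnormal new vessels.

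Matrix metalloproteinases are zinc-dependent enzymes that cut collagens and other matrix proteins, and most are made as inactive precursors. ADAMs are membrane proteins, many of which shed the outer parts of other membrane proteins, while ADAMTS enzymes are secreted and act on proteoglycans, procollagens and other matrix proteins. ADAMTS-like proteins share the domains that bind matrix but lack the protease domain, and TIMPs block the active site of these enzymes. In growing vessels, matrix metalloproteinases open the basement membrane ahead of the sprout, and TIMPs limit that cutting.

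Total counts per library were 17366045 to 21594618 in the OIR group and 17361979 to 19390627 in the normoxic group. As a check of the labelled tissue, 9 rod genes summed to 44650 to 50020 CPM in OIR and 41030 to 46190 CPM in normoxic libraries (CPM, counts scaled to the library total with a TMM factor). No label ties a library to its own animal, and the spread behind each p-value is that of these libraries, part of which may be technical. Normoxic replicates 1 to 3 stood apart from normoxic replicates 4 to 6: the chi-square per degree of freedom between 2 normoxic libraries was 12.01 to 15.3 across these sets and 3.05 to 4.07 within them (4.79 to 12.2 and 3.97 to 8.06 in OIR). No label gives a reason for the split. In OIR the ranges across and within these sets overlapped, and no label links OIR to normoxic libraries of the same number. Results are also given within replicate numbers 1 to 3 and within 4 to 6, where the groups are joined by number alone.

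Among the matrix metalloproteinases, 10 genes lie side by side on chromosome 9, and their start regions shared a sequence feature. The motif TGANTCA, the consensus bound by AP-1 transcription factors, was present within 250 bases before a RefSeq start (build GRCm38.p6) in 8 of these 10 genes. The same motif was present in 6.75% of all 32851 such windows and in 12 of the 54 members with a window. A match to these letters describes the sequence and shows no binding. The sites are shown because the cluster holds Mmp12, the member with the largest fold change, beside genes with few or no counts, with the motif in capitals and the strand of the gene read 5′ to 3′. From the lower to the higher coordinate on chromosome 9 of GRCm38.p6, they were chr9:7272467-7272497 (plus strand), chr9:7347318-7347348 (plus), chr9:7388101-7388131 (minus), chr9:7445764-7445794 (plus), chr9:7464056-7464086 (plus), chr9:7502267-7502297 (plus), chr9:7628124-7628154 (plus) and chr9:7692015-7692045 (plus), in the order of the lines.
Mmp13: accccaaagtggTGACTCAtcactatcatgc
Mmp12: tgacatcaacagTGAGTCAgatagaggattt
Mmp1b: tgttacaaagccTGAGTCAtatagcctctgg
Mmp3: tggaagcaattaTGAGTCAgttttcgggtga
Mmp1a: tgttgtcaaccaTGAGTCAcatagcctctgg
Mmp10: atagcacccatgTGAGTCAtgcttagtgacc
Mmp20: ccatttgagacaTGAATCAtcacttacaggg
Mmp7: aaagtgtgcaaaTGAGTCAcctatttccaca

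The motif began 35 bases before the start of Mmp13, 44 before the downstream of the 2 starts listed for Mmp12, 63 before that of Mmp10 and 46 before that of Mmp3. Mmp1a, Mmp1b, Mmp7 and Mmp20 carried it as well and had 0 counts in all 12 libraries, so the motif did not separate the counted genes of the cluster from the others.

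The cluster was nearly silent in normoxic retina, and Mmp12 was the one gene of it that reached the level for testing. Mmp12 encodes macrophage metalloelastase, an elastin-cutting enzyme (chromosome 9, 7344381 to 7369499 in build GRCm39, plus strand). It had 283 counts summed over the OIR libraries and 33 over the normoxic libraries. Its level was 1.74, 2.37 and 3.60 CPM (lowest, median and highest of 6) in OIR and 0, 0.297 and 0.668 CPM in normoxic libraries. All 6 OIR libraries thus lay above all 6 normoxic ones. The log2 fold change was 3.07 ± 0.40 (SE, edgeR adjusted p = 1.1e-05), an 8.42-fold rise. The ratio of counts was 8.50 (95% counting interval 5.92 to 12.6, counting error only). Mmp12 reached the level for testing only through its OIR libraries, so this p-value is no separate support for the rise.

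Mmp10, which encodes stromelysin-2, an enzyme that cuts proteoglycans and other matrix proteins, had 39 counts in OIR and 0 in normoxic libraries. Each OIR library held 2 to 10 of them. Set against the 3 counts that a total of 0 allows over a group, the OIR total of Mmp10 was 12.9-fold higher. That ratio leaves out the counting error of the OIR total, so it is not a lower bound. Mmp13, a collagenase gene, had 35 counts in OIR and 10 in normoxic libraries, a ratio of 3.47 (95% counting interval 1.68 to 7.86). Mmp3, the stromelysin-1 gene, had 6 counts in OIR, all in 3 libraries, and 0 in normoxic libraries. Its ratio to the same floor was 1.98, again without the counting error of the OIR total. Mmp8, the neutrophil collagenase gene, had 11 and 4 counts in OIR and normoxic libraries, with an interval that includes equality (0.808 to 11.7), and Mmp27 had 1 count in OIR and 0 in normoxic libraries. These genes were below the mean of 10 counts set for testing, so no test was made.

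**Figure D1:**
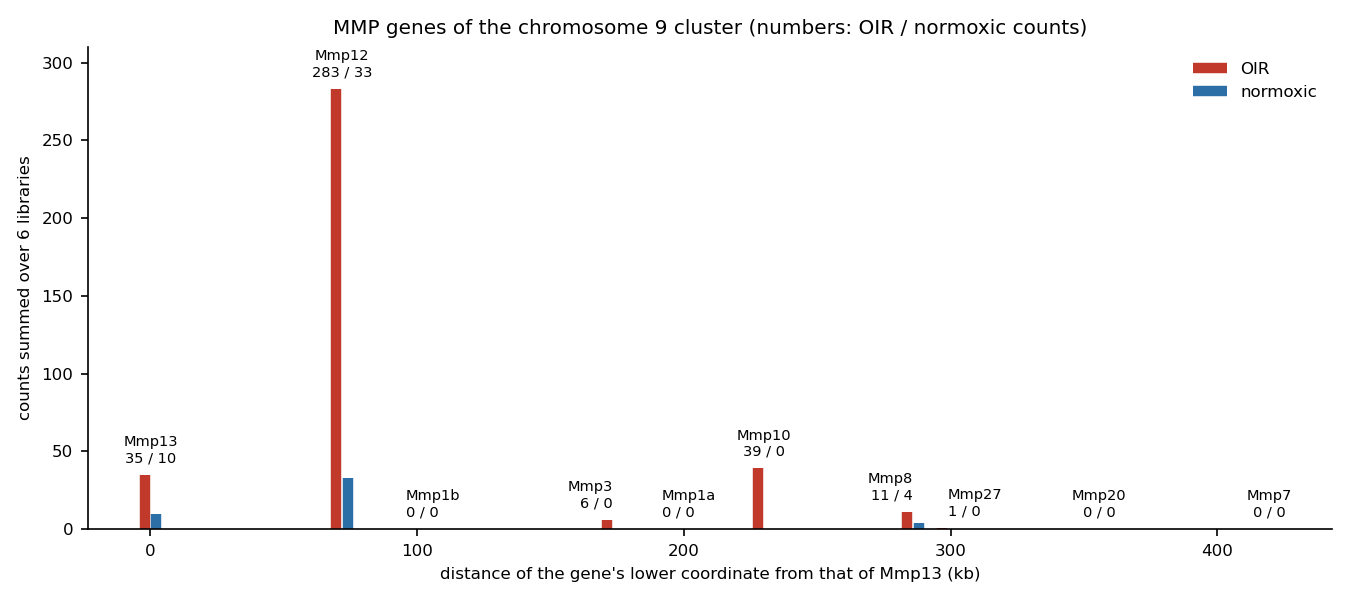
Counts of the 10 Mmp genes of chromosome 9, summed over 6 OIR (red) and 6 normoxic (blue) libraries, against the distance of each gene from Mmp13 in kilobases. Mmp12 stands highest with 283 OIR and 33 normoxic counts, followed in OIR by Mmp10 (39) and Mmp13 (35).

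Of the 85 members, 54 had a mean of at least 10 counts over the 12 libraries and were tested, 14 had no count in any library, and 17 had counts below that mean. The genes with no count were Mmp1a, Mmp1b, Mmp7, Mmp20, Adam6a, Adam6b, Adam20, Adam24, Adam25, Adam26a, Adam26b, Adam29, Adam34l and Adam39. Among those with too few counts were the 6 Mmp genes Mmp3, Mmp8, Mmp10, Mmp13, Mmp21 and Mmp27, the von Willebrand factor-cleaving enzyme gene Adamts13 (34 counts in OIR, 36 in normoxic libraries) and 10 Adam genes. Adam33 had the most counts of these 10, 39 in OIR and 49 in normoxic libraries. Mmp21 had 1 count in OIR and 9 in normoxic libraries, a ratio of 0.110 (95% counting interval 0.00251 to 0.795).

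At an edgeR adjusted p of 0.05 (quasi-likelihood test, Benjamini-Hochberg over 18336 genes), 21 of the 54 tested members rose (38.9%), against a background of 16.4% of all tested genes, and 8 fell (14.8%), against 14.8% of all tested genes. In either direction, 31.1% of all tested genes passed. A rise of at least 2-fold was seen in 11 members (20.4%; background 5.04%), and no member fell by as much (background 0.884%). In 17 members (31.5%) every OIR library lay above every normoxic one, against 9.47% of all tested genes, and in 5 (9.26%) every OIR library lay below, against 6.59%. Mmp12, Mmp19, Mmp25 and Adamts14 passed the count filter only through their OIR libraries. Over the other 50 members, 18 rose (36%), 8 of them at least 2-fold (16%), and 8 fell (16%). Of these 50, 15 had every OIR library above every normoxic one (30%), and 5 had every OIR library below (10%). Within numbers 1 to 3, 37 of 53 tested members passed, against 39.0% of all tested genes, and within 4 to 6, 23 of 54 passed, against 20.1%. Of the 25 members that did not pass over all 12 libraries, 11 passed within numbers 1 to 3 and none within 4 to 6, and these 11 are given with both values where they are described. The median log2 fold change was 0.17 over the 54 tested members, 0.15 over the 50 named above and -0.01 over all tested genes.

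**Figure D2:**
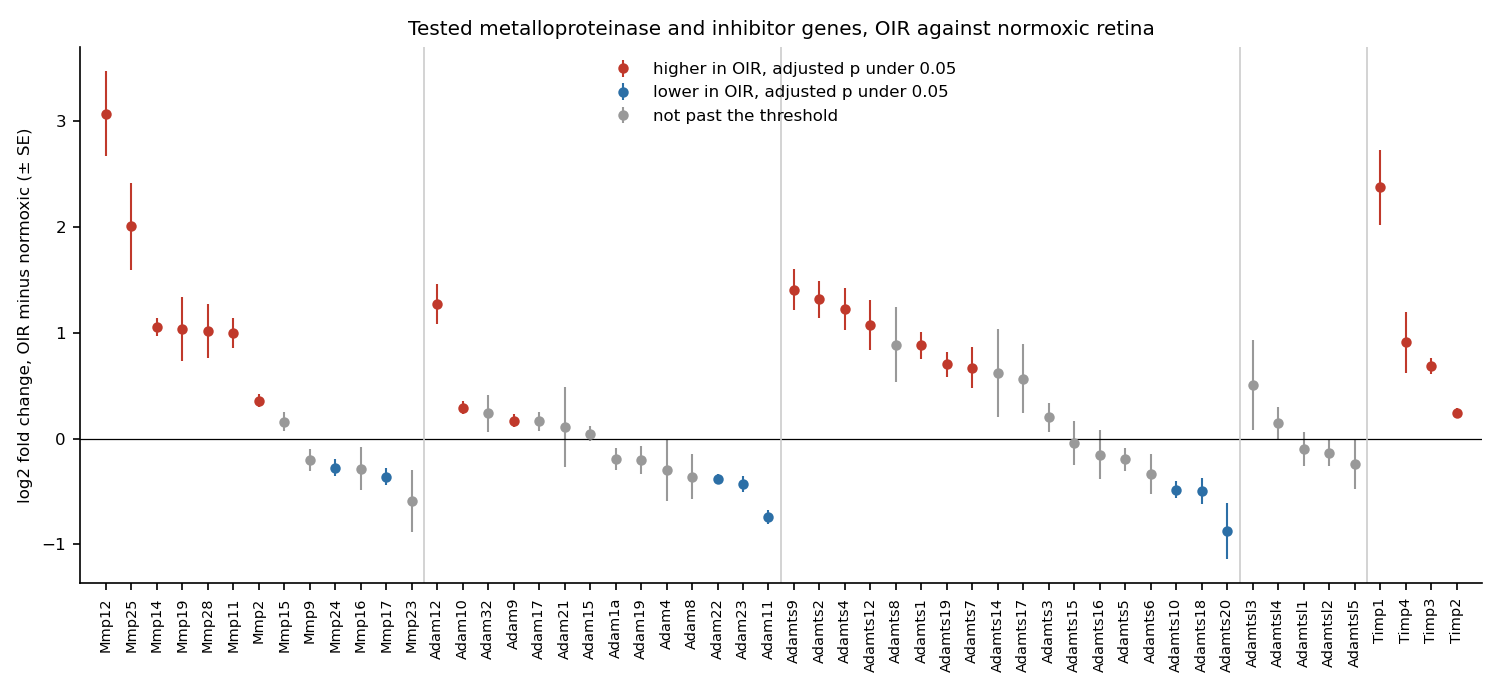
Log2 fold change (OIR minus normoxic) with its standard error for the 54 tested members, ordered within the Mmp, Adam, Adamts, Adamtsl and Timp families. Red and blue points passed an edgeR adjusted p of 0.05. Mmp12 (3.07), Timp1 (2.38) and Mmp25 (2.01) lie highest, Adamts20 (-0.87) and Adam11 (-0.74) lowest, and no Adamtsl gene passed. Mmp12 and Mmp25 passed the count filter only through their OIR libraries.

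All 4 inhibitor genes rose (background 16.4%), each with every OIR library above every normoxic one (background 9.47%). Timp1, which encodes a secreted, inducible inhibitor (chromosome X, 20736405 to 20740974, plus strand), was at 2.66, 4.77 and 9.84 CPM in OIR (lowest, median and highest) and at 0.360, 1.23 and 1.66 CPM in normoxic libraries. Its log2 fold change was 2.38 ± 0.35 (edgeR adjusted p = 4.9e-05), a 5.20-fold rise. OIR replicates 1 to 3 lay at 5.65 to 9.84 CPM and OIR replicates 4 to 6 at 2.66 to 3.88 CPM, while the normoxic libraries of these numbers overlapped. The log2 fold change of Timp1 was 2.75 within numbers 1 to 3 and 1.78 within 4 to 6, past the threshold in both.

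Timp3, whose product is bound to the matrix and also inhibits ADAM and ADAMTS enzymes, was at 22.2, 25.0 and 29.0 CPM in OIR and 14.8, 15.5 and 17.5 CPM in normoxic libraries. It rose 1.61-fold (log2 0.69 ± 0.08, edgeR adjusted p = 2.3e-06), the same way in both sets of numbers (0.66 and 0.72). Timp2, whose product also takes part in activating the Mmp2 precursor on the cell surface, was at 119, 124 and 128 CPM in OIR and 94.0, 106.5 and 114 CPM in normoxic libraries, a 1.18-fold rise (log2 0.24 ± 0.05, edgeR adjusted p = 7.8e-04). Timp4 was the least counted, at 1.04, 1.36 and 1.54 CPM in OIR and 0.271, 0.713 and 1.03 CPM in normoxic libraries (log2 0.91 ± 0.29, edgeR adjusted p = 0.022). Its call was lost within numbers 1 to 3 (adjusted p = 0.051) and within 4 to 6 (0.221).

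On the scale per gene length (FPKM), Timp2 led the family with a mean of 31.8 in OIR and 27.0 in normoxic libraries, followed by Timp1 (6.37 and 1.23), Timp3 (3.09 and 1.93) and Timp4 (0.225 and 0.119). Timp1 made up 15.04 ± 6.56% of the summed TIMP FPKM in OIR (7.63% to 24.5%) and 4.07 ± 2.04% in normoxic libraries (1.34% to 6.06%; mean ± SD, n = 6 each). The summed TIMP FPKM was 41.4 ± 2.55 in OIR and 30.3 ± 1.81 in normoxic libraries. The summed FPKM of all Mmp genes was 41.9 ± 1.14 in OIR and 37.1 ± 0.881 in normoxic libraries, so the ratio of Mmp to Timp sums was 1.01 ± 0.0598 in OIR and 1.23 ± 0.0778 in normoxic libraries. These sums rest on the authors' gene lengths (888 bases behind the FPKM of Timp1, 8144 behind that of Timp3) and count transcripts, not enzyme activity.

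**Figure D3:**
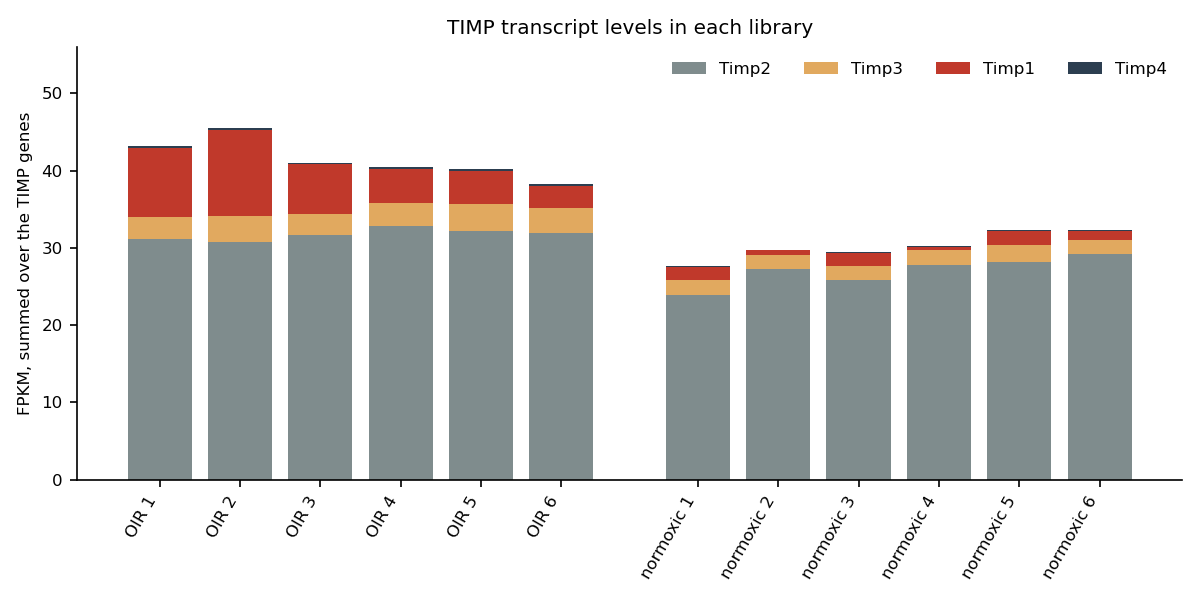
FPKM of the 4 Timp genes stacked for each of the 6 OIR (left) and 6 normoxic (right) libraries. Timp2 forms most of every bar, the bars of OIR libraries reach 38.3 to 45.5 against 27.7 to 32.4 in normoxic libraries, and the Timp1 layer is thickest in OIR replicates 1 to 3.

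Timp1, Timp3 and Timp4 lie inside the synapsin genes Syn1, Syn3 and Syn2, which encode synaptic vesicle proteins and are read from the opposite strand. The strand setting of the counting was not known here, so reads of a nested pair may not be told apart. Syn1, with a mean of 2402 counts in OIR and 3285 in normoxic libraries, fell by 0.45 on the log2 scale (edgeR adjusted p = 3.1e-04). Syn2 fell by 0.50 (edgeR adjusted p = 4.2e-05), and Syn3 had a log2 fold change of 0.07 (adjusted p = 0.804). Timp1 and Timp4 rose while their host genes fell. Syn2 had means of 659.8 counts in OIR and 931.7 in normoxic libraries, and Timp4 a mean of 18.75 counts over both groups. The part of host gene reads in the counts of Timp1, Timp3 and Timp4 was not tested.

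The 250 bases before the RefSeq start of Timp1 (chrX:20869916-20870165, plus strand, GRCm38.p6) and of Mmp14 (chr14:54431348-54431597, plus strand, GRCm38.p6) are shown because both genes rose in every OIR library and both windows hold a hypoxia response core. Capitals mark ACGTG and GCGTG, the core letters of sites bound by hypoxia-inducible factors, found on either strand, where neighbouring matches may share a base. ACGTG was present in 16.6% and GCGTG in 28.2% of all windows of this length.
Timp1: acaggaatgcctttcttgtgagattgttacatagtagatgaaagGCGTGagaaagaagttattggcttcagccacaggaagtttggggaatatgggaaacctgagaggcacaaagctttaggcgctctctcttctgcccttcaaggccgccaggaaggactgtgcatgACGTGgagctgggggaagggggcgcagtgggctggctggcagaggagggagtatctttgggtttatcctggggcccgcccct
Mmp14: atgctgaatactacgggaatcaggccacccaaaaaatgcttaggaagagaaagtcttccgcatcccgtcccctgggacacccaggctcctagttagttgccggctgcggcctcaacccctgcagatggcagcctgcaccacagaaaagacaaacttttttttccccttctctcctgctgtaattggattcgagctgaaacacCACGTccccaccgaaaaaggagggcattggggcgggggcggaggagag

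In the window of Timp1, GCGTG began 206 and ACGTG 82 bases before the start. In the window of Mmp14, ACGTG lay on the other strand, 48 bases before the start. These 2 windows are examples: Adamts9, Adamts12, Mmp25, Timp2 and Timp3 also rose without overlap of the groups and had GCGTG in a window. Among the members, ACGTG was present in 3 of 15 windows of those that rose (20%), in 2 of 5 windows of those that fell (40%) and in 4 of 18 windows of those that did not pass the test (22.2%). GCGTG was present in 8 of 15 windows of those that rose (53.3%), in 4 of 5 of those that fell (80%) and in 8 of 18 of those that did not pass (44.4%). The members that fell had only 5 windows, and the differences between these shares were not tested.

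The membrane-type metalloproteinases, which are anchored in the cell surface, went both ways. Mmp14, whose product activates the Mmp2 precursor and cuts collagen at the surface of sprouting cells (chromosome 14, 54669069 to 54682821, plus strand), was at 34.2, 37.0 and 39.7 CPM in OIR and 13.6, 18.3 and 20.03 CPM in normoxic libraries. It rose 2.08-fold with no overlap (log2 1.06 ± 0.08, edgeR adjusted p = 3.5e-08), and the SD was 2.15 CPM in OIR and 2.53 CPM in normoxic libraries. Its share of the summed Mmp FPKM was 14.8 ± 1.11% in OIR and 8.08 ± 1.23% in normoxic libraries. Mmp25 is known as an enzyme of leukocytes (chromosome 17, 23847285 to 23864251, minus strand). It was at 1.13, 1.27 and 2.38 CPM in OIR and 0.0571, 0.287 and 0.816 CPM in normoxic libraries (log2 2.01 ± 0.41, edgeR adjusted p = 9.6e-04). Mmp25 passed the count filter only through its OIR libraries. Its log2 fold change was 3.26 within numbers 1 to 3 and 1.46 within 4 to 6, since normoxic replicates 1 to 3 lay at 0.0571 to 0.162 CPM and normoxic replicates 4 to 6 at 0.411 to 0.816 CPM.

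Mmp17 and Mmp24, of which Mmp24 is known from neurons, fell by 0.36 and 0.28 on the log2 scale (edgeR adjusted p = 0.00182 and 0.0121). Mmp17 was at 17.9, 22.9 and 23.6 CPM in OIR and 24.6, 28.3 and 30.7 CPM in normoxic libraries, with no overlap, and its call was lost within numbers 4 to 6 (adjusted p = 0.135). Mmp15 (0.16) and Mmp16 (-0.28) did not pass the test. Mmp15 was called higher in OIR within numbers 1 to 3 (0.29, edgeR adjusted p = 0.0264), and within 4 to 6 it was at 0.03 (adjusted p = 0.909).

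The gelatinases, which cut denatured collagen and type IV collagen, were the Mmp genes with the highest levels per length. Mmp2 averaged 10.1 FPKM in OIR and 7.95 FPKM in normoxic libraries, and Mmp9 7.11 and 8.24 FPKM. Mmp2 was at 31.3, 34.4 and 36.6 CPM in OIR and 23.2, 27.3 and 28.5 CPM in normoxic libraries, a 1.28-fold rise (log2 0.36 ± 0.06, edgeR adjusted p = 2.0e-04). Mmp9 was at 20.5, 23.7 and 30.7 CPM in OIR and 23.8, 29.1 and 35.7 CPM in normoxic libraries. The groups of Mmp9 overlapped, and it did not pass the test (log2 -0.20 ± 0.11, edgeR adjusted p = 0.166). Within numbers 1 to 3 it was called lower in OIR (-0.39, adjusted p = 0.00658), and within 4 to 6 it was at 0.0019 (adjusted p = 0.993).

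Of the other tested Mmp genes, Mmp11, which encodes stromelysin-3, rose 2.00-fold (log2 1.00, just under the 2-fold mark, edgeR adjusted p = 2.7e-05). It was at 5.61, 8.57 and 10.9 CPM in OIR and 3.82, 4.12 and 4.99 CPM in normoxic libraries. Mmp11 overlaps Chchd10 on the other strand, and that gene did not pass the test (log2 -0.27, adjusted p = 0.0708). Mmp28, the epilysin gene, was at 1.46, 2.21 and 3.49 CPM in OIR and 0.750, 1.29 and 1.47 CPM in normoxic libraries (log2 1.02 ± 0.26, edgeR adjusted p = 0.00514). Mmp19 was at 0.580, 0.968 and 1.29 CPM in OIR and 0.321, 0.423 and 0.685 CPM in normoxic libraries (log2 1.03 ± 0.30, edgeR adjusted p = 0.0139). The groups touched or overlapped in both, and the call of Mmp19 was lost within either set of numbers (adjusted p = 0.116 and 0.0954). Mmp19 passed the count filter only through its OIR libraries. Mmp19 overlaps Tmem198b on the other strand, with means of 149.7 counts in OIR and 140.2 in normoxic libraries. That gene did not pass (log2 0.09, edgeR adjusted p = 0.593). Mmp23 did not pass (log2 -0.59, adjusted p = 0.14).

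**Figure D4:**
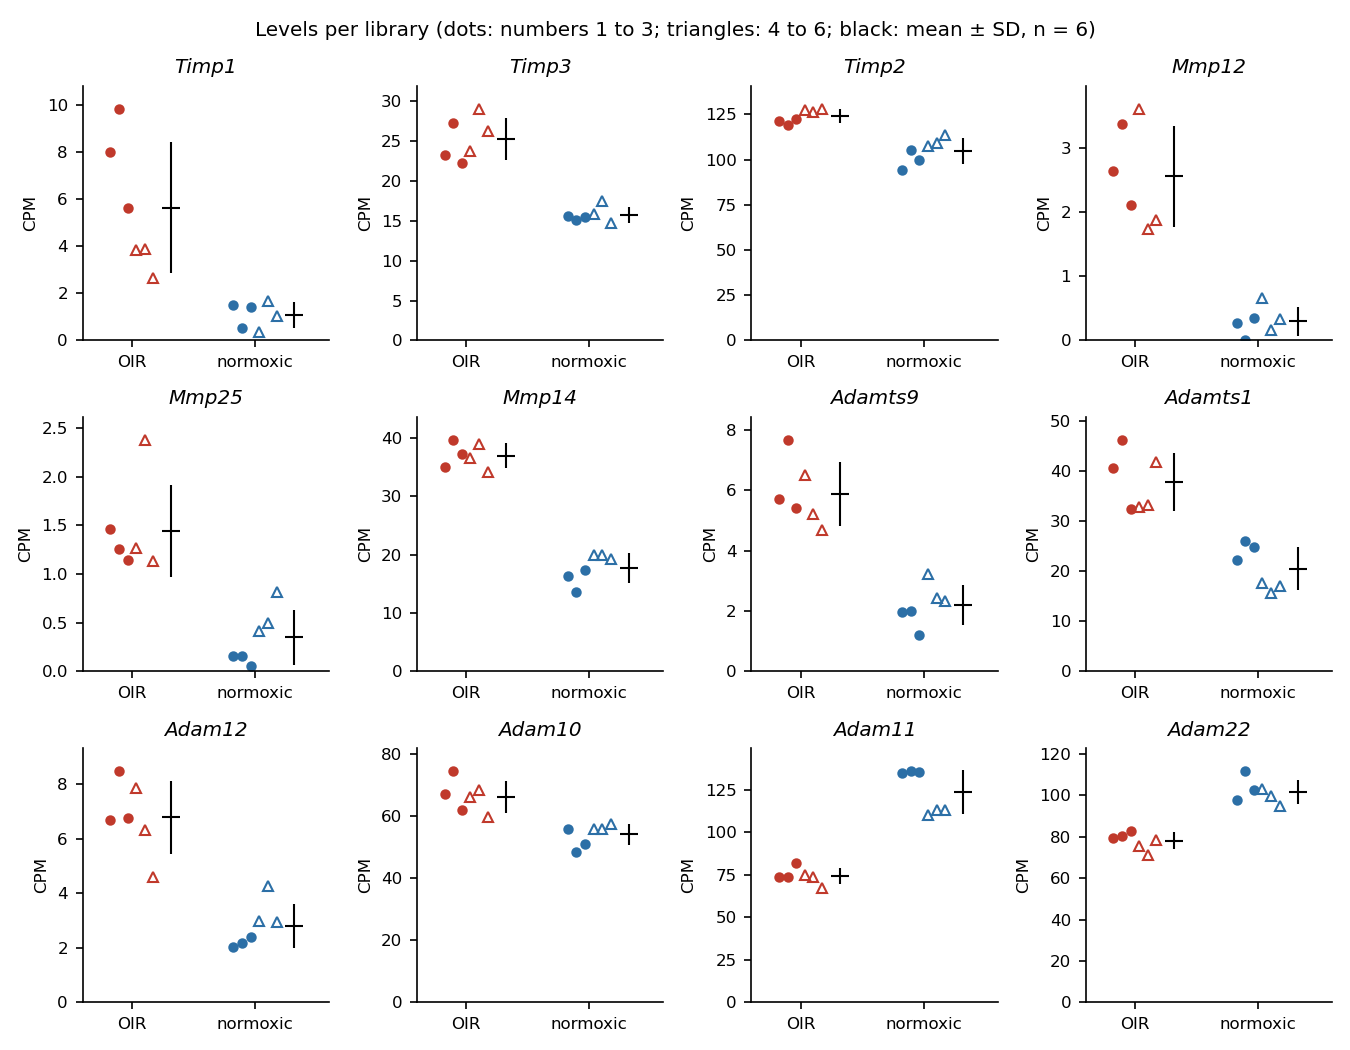
CPM of 12 members in each library, OIR left and normoxic right, with the mean ± SD of 6 libraries in black. Dots are replicate numbers 1 to 3 and triangles 4 to 6. In each of these 12 genes the groups do not overlap, and Adam11 and Adam22 are the members shown that lie lower in OIR.

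The lectican-cleaving ADAMTS enzymes, which cut aggrecan, versican and brevican, rose in 3 of 7 members (background 16.4%) and fell in 1 (background 14.8%). Adamts1 (chromosome 16, 85590715 to 85600001, minus strand) had the highest level per length of the ADAMTS family in OIR, with a mean of 7.11 FPKM in OIR and 3.88 FPKM in normoxic libraries. It was at 32.4, 37.0 and 46.1 CPM in OIR and 15.6, 19.8 and 25.9 CPM in normoxic libraries (log2 0.88 ± 0.13, edgeR adjusted p = 3.0e-05), with no overlap. Adamts9 was at 4.70, 5.57 and 7.67 CPM in OIR and 1.20, 2.17 and 3.24 CPM in normoxic libraries (log2 1.41 ± 0.19, edgeR adjusted p = 2.1e-05). Its log2 fold change was 1.85 within numbers 1 to 3 and 1.04 within 4 to 6.

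Adamts4, an aggrecanase gene, was at 3.58, 4.67 and 6.55 CPM in OIR and 1.29, 2.14 and 2.57 CPM in normoxic libraries (log2 1.23 ± 0.20, edgeR adjusted p = 9.6e-05). Its groups did not overlap. Adamts20 fell by 0.87 on the log2 scale (edgeR adjusted p = 0.0179), at 0.781, 1.01 and 2.02 CPM in OIR and 1.45, 1.84 and 3.21 CPM in normoxic libraries. Its call was lost without normoxic replicate 6 (adjusted p = 0.0515) and within numbers 1 to 3 (0.262). Adamts5, the other main aggrecanase gene, did not pass (log2 -0.20, adjusted p = 0.191), nor did Adamts8 (0.89, adjusted p = 0.0675) and Adamts15 (-0.04). Adamts5 was called lower in OIR within numbers 1 to 3 (-0.43, edgeR adjusted p = 4.8e-05), and within 4 to 6 it was at 0.09 (adjusted p = 0.608). Of the lectican substrates, the versican gene Vcan rose 2.15-fold (edgeR adjusted p = 2.1e-05), the brevican gene Bcan fell by 0.54 on the log2 scale (adjusted p = 7.1e-04), and the neurocan gene Ncan did not pass (-0.22, adjusted p = 0.207). Acan, the aggrecan gene, had 11 counts in OIR and 20 in normoxic libraries and was not tested.

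The enzymes that trim the amino-terminal end of fibrillar procollagens were Adamts2, Adamts3 and Adamts14, and over all 12 libraries Adamts2 alone passed the test. It was at 3.76, 5.04 and 6.50 CPM in OIR and 1.39, 2.06 and 2.45 CPM in normoxic libraries, a 2.49-fold rise (log2 1.32 ± 0.18, edgeR adjusted p = 1.5e-05). Adamts3 (0.20, adjusted p = 0.287) and Adamts14 (0.62, adjusted p = 0.285) did not pass. Adamts3 was called higher in OIR within numbers 1 to 3 (0.62, edgeR adjusted p = 2.2e-04) and was at -0.23 within 4 to 6 (adjusted p = 0.227). Bmp1, which encodes the enzyme that trims the other end of procollagens, rose 1.97-fold, at 61.0, 77.1 and 94.2 CPM in OIR and 35.3, 38.5 and 45.6 CPM in normoxic libraries (edgeR adjusted p = 2.2e-07). Pcolce, which encodes the enhancer of that cleavage, rose 10.7-fold, at 48.1, 84.8 and 166 CPM in OIR and 7.29, 8.60 and 10.3 CPM in normoxic libraries (edgeR adjusted p = 6.1e-09). Its paralog Pcolce2 did not pass (log2 -0.02, adjusted p = 0.959).

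Among the other ADAMTS genes, Adamts12 was at 2.32, 3.196 and 5.62 CPM in OIR and 0.974, 1.66 and 2.16 CPM in normoxic libraries (log2 1.08 ± 0.24, edgeR adjusted p = 0.00177), a call lost within numbers 4 to 6 (adjusted p = 0.0501). Adamts7 (0.67) and Adamts19 (0.70) rose as well, the first of them with a call lost within numbers 4 to 6 (adjusted p = 0.181). Adamts7 overlaps Tbc1d2b on the other strand, which had means of 282.5 counts in OIR and 238.3 in normoxic libraries. Tbc1d2b did not pass the test (log2 0.24, edgeR adjusted p = 0.0941). Adamts10, whose product acts in the fibrillin microfibrils of connective tissue, fell to 30.5, 33.4 and 37.3 CPM in OIR, against 40.5, 46.0 and 57.5 CPM in normoxic libraries (log2 -0.48 ± 0.08, edgeR adjusted p = 2.0e-04). Per length, Adamts10 averaged 4.08 FPKM in OIR and 5.74 FPKM in normoxic libraries, below Adamts1 in OIR and above it in normoxic retina. Adamts18 fell by 0.50 on the log2 scale (edgeR adjusted p = 0.00508). Adamts6, Adamts16 and Adamts17 did not pass. Adamts17 was called higher in OIR within numbers 1 to 3 (1.33, edgeR adjusted p = 0.00414), and within 4 to 6 it was at 0.04 (adjusted p = 0.961).

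Over all 12 libraries, none of the 5 ADAMTS-like genes passed the edgeR test (0 at an unadjusted p under 0.05, and 0 by DESeq2), and their log2 fold changes lay between -0.24 (Adamtsl5) and 0.51 (Adamtsl3). The sets of numbers differed in sign for all 5. Within numbers 1 to 3, Adamtsl1 (-0.40, edgeR adjusted p = 0.0146), Adamtsl2 (-0.42, 0.0052) and Adamtsl5 were called lower and Adamtsl3 (1.57, 0.00926) higher in OIR. Within numbers 4 to 6 none was called, with Adamtsl1 at 0.24, Adamtsl2 at 0.22 and Adamtsl3 at -0.73, and the difference between the sets was not tested. Adamtsl1 overlaps Sh3gl2 on the same strand, a gene with means of 5297 counts in OIR and 5932 in normoxic libraries (log2 -0.17, edgeR adjusted p = 0.0309). Adamtsl4, known from inherited lens dislocation in humans, had the highest level per length of them, 5.28 FPKM in OIR and 4.81 FPKM in normoxic libraries. It was at 16.5, 19.9 and 35.3 CPM in OIR and 16.4, 20.5 and 23.6 CPM in normoxic libraries, with OIR replicate 6 highest. The 14 lens genes listed, mainly crystallins, summed to 6.92 to 26.1 CPM in OIR and 13.4 to 75.0 CPM in normoxic libraries, and their part in this value was not tested. Adamtsl5 was at 9.62, 11.95 and 14.6 CPM in OIR and 7.13, 14.3 and 21.1 CPM in normoxic libraries. Its normoxic libraries parted by number, with 19.3 to 21.1 CPM in replicates 1 to 3 and 7.13 to 9.24 CPM in replicates 4 to 6, so its log2 fold change was -0.58 (adjusted p = 1.3e-04) within the first and 0.35 (adjusted p = 0.114) within the second set.

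Of 7 tested ADAMs listed here as working proteases, 3 rose (background 16.4%), among them Adam9 with a marginal call, and none fell (background 14.8%). The list was not checked against protein sequences. Adam12, a gene of muscle, bone and activated stromal cells, was at 4.59, 6.71 and 8.47 CPM in OIR and 2.04, 2.67 and 4.27 CPM in normoxic libraries (log2 1.27 ± 0.19, edgeR adjusted p = 4.0e-05), with no overlap. Its log2 fold change was 1.73 within numbers 1 to 3 and 0.89 within 4 to 6. Adam10, the main sheddase of Notch and cadherins, was at 59.6, 66.5 and 74.4 CPM in OIR and 48.5, 55.8 and 57.5 CPM in normoxic libraries, a 1.23-fold rise (log2 0.29 ± 0.06, edgeR adjusted p = 9.1e-04). Adam17, the sheddase of tumour necrosis factor, did not pass (log2 0.16, adjusted p = 0.173), nor did Adam15 (0.04), Adam19 (-0.20) and Adam8 (-0.36). Within numbers 1 to 3, Adam17 was called higher (0.28, edgeR adjusted p = 0.0169) and Adam8 lower in OIR (-0.66, adjusted p = 2.6e-04). Within 4 to 6, Adam17 was at 0.03 (adjusted p = 0.874) and Adam8 at 0.10 (adjusted p = 0.76). Besides these and the neural ADAMs, 4 Adam genes were tested and did not pass. They were Adam1a (-0.19), Adam4 (-0.30), Adam21 (0.11) and Adam32 (0.24).

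Adam9 had the highest level per length of the Adam family, 30.95 FPKM in OIR and 27.7 FPKM in normoxic libraries. It was at 122, 127 and 136 CPM in OIR and 101, 112 and 127 CPM in normoxic libraries, and its call was marginal (log2 0.17 ± 0.06, edgeR adjusted p = 0.0448). The log2 fold change was 0.33 within numbers 1 to 3 (adjusted p = 2.6e-05) and 0.03 within 4 to 6 (adjusted p = 0.76). The normoxic libraries were at 101 to 103 CPM in replicates 1 to 3 and at 121 to 127 CPM in replicates 4 to 6, while the OIR libraries of both sets overlapped. The call was lost without each of 8 libraries in turn, with adjusted p-values of up to 0.115.

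**Figure D5:**
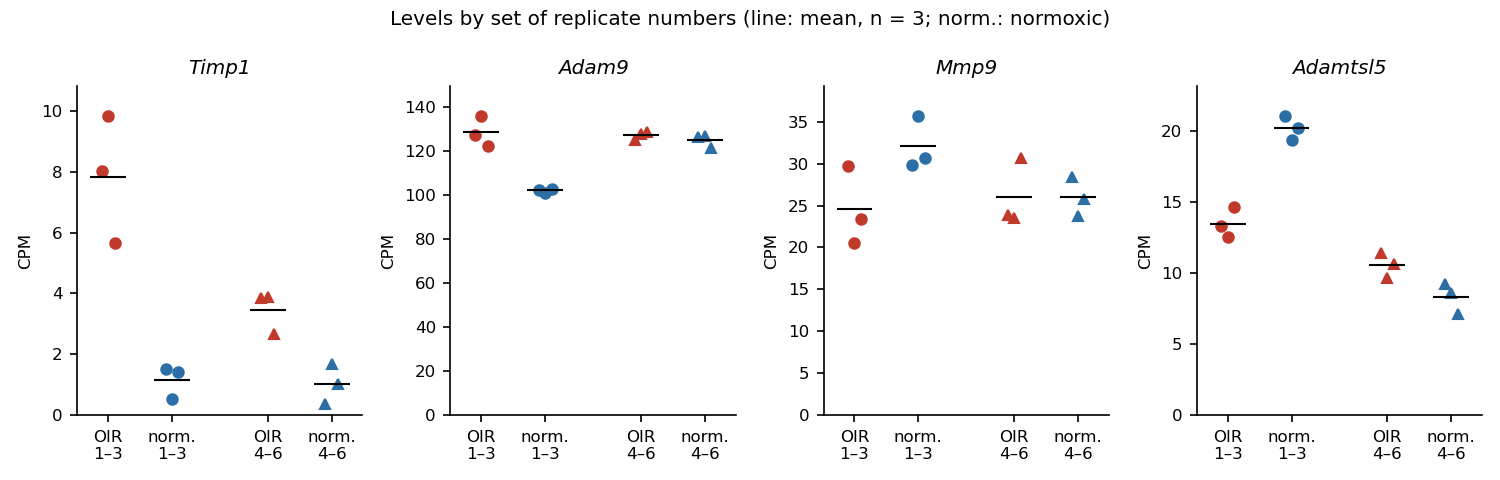
CPM of 4 members by set of replicate numbers (1 to 3 as dots, 4 to 6 as triangles), OIR in red left of normoxic in blue within each set, with the mean of 3 libraries as a line. The normoxic libraries of Adam9 and Adamtsl5 part by set, and OIR libraries of Timp1 are at 5.65 to 9.84 CPM in the first set and 2.66 to 3.88 CPM in the second.

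All 3 neural ADAMs without a working protease fell (background 14.8%), each with every OIR library below every normoxic one (background 6.59%). Adam11 (chromosome 11, 102652265 to 102671088, plus strand), whose product organises nerve terminals, was at 67.0, 73.7 and 81.9 CPM in OIR and 110, 124 and 136 CPM in normoxic libraries. It fell by 0.74 ± 0.07 (SE) on the log2 scale (edgeR adjusted p = 1.1e-07), with -0.83 within numbers 1 to 3 and -0.64 within 4 to 6. Adam22, which encodes the receptor of the secreted synaptic protein Lgi1, was at 71.2, 78.9 and 82.9 CPM in OIR and 94.7, 101 and 112 CPM in normoxic libraries (log2 -0.38 ± 0.05, edgeR adjusted p = 1.2e-05). Adam23, which encodes a related Lgi1 receptor, was at 35.9, 39.6 and 45.8 CPM in OIR and 46.9, 55.8 and 60.2 CPM in normoxic libraries (log2 -0.43 ± 0.08, edgeR adjusted p = 2.5e-04).

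Most bipolar cell markers and some ganglion cell markers were lower in the same libraries, and rod markers went both ways. As the background for these counts, 16.4% of all tested genes rose and 14.8% fell. Of 8 bipolar cell genes, 7 fell and none rose, with sums of 1105 to 1273 CPM in OIR and 1504 to 1704 CPM in normoxic libraries. Of 8 ganglion cell genes, 4 fell and none rose, with sums of 548 to 790 CPM in OIR and 755 to 1081 CPM in normoxic libraries. Of 9 rod genes, 3 rose and 1 fell, with sums of 44650 to 50020 CPM in OIR and 41030 to 46190 CPM in normoxic libraries. Their part in the fall of Adam11, Adam22 and Adam23 was not tested. In bulk retina, fewer cells of a type and less RNA per cell cannot be told apart.

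The members that rose did so beside markers of vessels, macrophages and stromal cells. The background for the counts of this paragraph was 16.4% of all tested genes higher and 14.8% lower in OIR. Endothelial genes rose in 11 of 12 tested members, with sums of 485 to 663 CPM in OIR and 281 to 354 CPM in normoxic libraries. Tip cell genes rose in 8 of 8 (179.5 to 255.5 against 35.1 to 48.8 CPM, OIR against normoxic), and pericyte and smooth muscle genes in 10 of 10 (532 to 764 against 191 to 253 CPM). Microglia and macrophage genes rose in 10 of 12, with sums of 134 to 182 CPM in OIR and 60.6 to 68.9 CPM in normoxic libraries, and Mrc1, a macrophage gene, had 373 counts in OIR and 6 in normoxic libraries. Fibroblast genes rose in 4 of 5 tested members, among them Col1a1 (15.4 and 1.247 CPM in OIR and normoxic libraries), while Dcn and Lum had 30 and 1 counts in OIR and 23 and 4 in normoxic libraries. Astrocyte genes rose in 6 of 7 (253 to 416 CPM in OIR, 55.95 to 83.1 CPM in normoxic libraries). Müller glia genes went both ways, with 2 of 10 higher and 4 lower, the 4 tested red blood cell genes rose, and none of 8 pigment epithelium genes passed. The part of these cell types in the changes of the members was not tested.

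Neutrophils are a known source of Mmp8, Mmp9 and Mmp25. Their 11 listed genes summed to 3.36 to 6.52 CPM in OIR and 2.91 to 4.22 CPM in normoxic libraries, mostly from Csf3r, which did not pass the test (log2 0.07, adjusted p = 0.779). Mpo had 0 counts in all 12 libraries, Ly6g had 6 in OIR and 0 in normoxic libraries, and S100a8 had 39 and 9. Their part in the rise of Mmp25 was not tested.

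Of 27 listed partners of these enzymes, namely activators, chaperones, other inhibitors, clearance receptors and related astacin proteases, 24 were tested, 8 rose (background 16.4%), 1 fell (background 14.8%) and 15 did not pass. A2m, which encodes a broad protease inhibitor that traps enzymes of many classes, rose 15.5-fold, at 30.7, 47.9 and 68.7 CPM in OIR and 1.08, 2.53 and 5.93 CPM in normoxic libraries (edgeR adjusted p = 4.9e-08). The gene that fell was Reck, which encodes a membrane-bound inhibitor of matrix metalloproteinases, at 19.9, 22.6 and 25.9 CPM in OIR and 27.4, 30.1 and 33.1 CPM in normoxic libraries (log2 -0.42 ± 0.07, edgeR adjusted p = 2.6e-04). In both genes the groups did not overlap, and Reck thus moved opposite to the 4 TIMPs and A2m.

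Bsg, which encodes basigin, a membrane protein known for inducing matrix metalloproteinases in neighbouring cells, rose 1.32-fold (edgeR adjusted p = 1.5e-06). Of the genes that guide Adam17 to the surface, Frmd8 rose 1.72-fold and Rhbdf1 1.47-fold (edgeR adjusted p = 6.7e-06 and 3.0e-04), while Rhbdf2 did not pass (log2 0.13, adjusted p = 0.429). Of the 6 tetraspanins that guide Adam10, Tspan14 rose 1.45-fold and Tspan15 1.34-fold (edgeR adjusted p = 4.0e-04 and 3.9e-06). Tspan5, Tspan10, Tspan17 and Tspan33 did not pass. The convertase genes Furin, Pcsk5, Pcsk6 and Pcsk7, which activate many of the precursors, and the clearance receptor gene Lrp1 did not pass either, with log2 fold changes of -0.27 to 0.10.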

How the data were processed

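Per the file headers, the authors deposited raw counts and FPKM of each gene in 12 libraries, side by side in 1 table. Trimmomatic, HISAT2 version 2.0.5, HTSeq and build GRCm39 are named without roles, per the submitters' processing notes, and neither the strand setting nor the annotation is given in the sources used here. The FPKM the authors deposited served for levels between genes. Groups and replicate numbers came from the titles.

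The main test, on genes with a mean of at least 10 counts, was the quasi-likelihood test of edgeR (version 4.0.16, in R 4.3.3) with TMM factors, Benjamini-Hochberg adjustment and a threshold of 0.05. CPM used TMM-scaled totals. Alternatives used DESeq2 version 1.42.0, limma version 3.58.1 on log2(FPKM + 1) and log2(FPKM + 0.1), other filters and scalings, blocks and fewer libraries. Members, lists and rules were chosen with earlier results of these data known. Named in full were the TIMPs, members passing with a log2 fold change of at least 1 in size, and the 2 with the highest FPKM per family; others were named after their values were seen. On simulated data for OIR against normoxic (18336 genes), 26% of 50 genes changed 1.25-fold, 66% changed 1.5-fold and 86% changed 2-fold were recovered, with 7 false calls. Far fewer genes were changed there than the 5711 called here, and the simulated libraries held no sets like those of the normoxic libraries. Recovery and false calls in the data may therefore differ. Between libraries of a group, chi-square was 3.05 to 15.3 times its degrees of freedom, so none was the same library deposited again; repeat preparations of 1 retina would not be seen this way. Promoter windows came from RefSeq, build GRCm38.p6, and matched 54 of 85 members by symbol. The sequences shown were chosen after the motif search, and no protein sequences were used here. The overlap of Adamts4 with another gene is not reported here.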

Additional observations from a re-analysis of the deposited data

Results flagged for a closer look

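In 64 groups of 6 libraries (32 members, both groups), 2 had a library apart from the others by Dixon's 95% criterion, where chance flags about 1 in 20. Mmp25 in OIR replicate 5 was at 2.38 CPM, with the next OIR library at 1.46 CPM. Without that library its log2 fold change was 1.81 (edgeR adjusted p = 0.00318). Adamts20 in OIR replicate 1 was at 2.02 CPM, with the next OIR library at 1.20 CPM, and without it the log2 fold change was -1.11 (edgeR adjusted p = 0.00327).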

How the results depend on the processing

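Of the 29 members called, 22 kept their call under all 23 alternatives and none of the 29 changed direction; the exceptions were Adam9, Adamts7, Adamts12, Adamts20, Mmp17, Mmp19 and Timp4. The replicate block gave 21 members higher and 8 lower, and 5719 genes in all. Same-numbered libraries correlated at -0.0236 to 0.122 in their deviations. That gave no sign of pairing by number, but a weak pairing could not be seen this way. Within numbers 1 to 3, 13 members were called lower, and 37 in all, of which 26 were called over all 12 libraries. Within numbers 4 to 6, 23 members were called, all 23 of them shared, and 3680 genes in all against 5711. The partner genes lower in OIR numbered 1 over all 12 libraries, 2 without a filter, 3 with DESeq2, 2 with a term for the sets, 6 within numbers 1 to 3, and 1 to 3 when a library was left out; Reck was among them every time. Leaving out each library in turn gave 20 to 22 members higher and 7 to 9 lower. Of the 25 members that had not passed the test, 12 changed sign under some alternative, each of them within a set of numbers, and Adam21, Adamts15 and Adamtsl4 also without single libraries. Among those named by rule, Adamtsl4 was at -0.12 within numbers 1 to 3 and -0.032 without OIR replicate 6 (up to 0.222 without OIR replicate 3), Adamtsl5 at 0.35 and Mmp9 at 0.0019 within numbers 4 to 6. The cause was not tested, and the difference between the sets was not tested since the sets were recognised from these data. Depth limits the 17 members under a mean of 10 counts, for which no direction can be given beyond the counting intervals.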
